A study of Mus musculus with 30 samples.

Results

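Axons and migrating cells are steered by a small set of conserved ligand and receptor families, and the genes of these families were followed here through the formation of mouse retinal organoids. The members were chosen by gene name. They comprise the protein-coding Eph receptors and ephrins, the semaphorins with their plexin and neuropilin receptors, the Slits and their Robo receptors, the netrins and netrin-Gs, the netrin receptors Dcc and Unc5, and the repulsive guidance molecules Rgma and Rgmb. Among the deposited genes, 74 identifiers matched, carrying 72 symbols, out of 45594, of which 22175 are protein coding. The netrin Ntn5 stood there with 3 identifiers, none of which reached 1 CPM in any library, and these were the only members that did not pass the filter on low counts. The remaining 71 members were tested among 19897 genes.

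The libraries came from 1 clone of induced pluripotent stem cells (iPSCs), reprogrammed from fibroblasts of wild-type Nrl-GFP mouse embryos with doxycycline-inducible Oct3/4, Sox2, Klf4 and c-Myc. All groups share this clone and its Nrl-GFP reporter, and they differ in the day of differentiation. The D0 group was iPSCs kept on feeder cells with LIF, the D4 group was whole organoids, and all later groups, collected at D7, D10, D12 and D15 and then at D18, D22, D25 and D32, were neural retina dissected out of the organoids. The labels call the 3 libraries of a day biological replicates. Fewer organoids were pooled per library with age: 36 (D4), 30 (D7), 20 (D10) and 12 (all later days). Matrigel was added a day after plating. Cultures moved to a new medium at D7, and at D10 taurine, 9-cis retinal and insulin-like growth factor 1 were added while oxygen went from 5% to 20%. B27 supplement without vitamin A and serum were added from D26. Day, medium and oxygen therefore cannot be told apart at these points, and D7 differs from D4 also by the dissection.

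These families act mainly through contact or short-range diffusion. Ephrins are anchored to the membrane and bind Eph receptor kinases on neighbouring cells, and in the retina graded EphA and EphB levels position the axons of ganglion cells on their targets. Semaphorins signal through plexins, the secreted class with neuropilins as co-receptors, and guide both axons and blood vessels. Slits repel through Robos, whereas netrin attracts through Dcc and repels through Unc5. Several of these proteins also place retinal neurons into their layers.

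Depth lay between 16.77 and 24.53 M estimated counts per library (median 19.23 M). CPM is the count per M counts of library size, after that size is multiplied by its TMM factor. The factors lay between 0.524 and 1.16, with the lowest in D4 replicate 2, the deepest library, so 1 CPM does not follow raw depth alone. Levels are given in CPM after TMM scaling, as mean ± SD over the 3 libraries of a day, and fold changes as log2 with their standard error. The members together took 0.0774% to 0.461% of the counts of a library. At D4 the libraries stood apart from each other: replicate 2 held 25.0% ribosomal-type RNA against at most 0.241% in all other libraries, and replicate 3 had a summed level of 5 pluripotency markers of 108 CPM against 378 and 641 CPM in replicates 1 and 2. The libraries also fell into 2 sets by how the counts of Rpl3 and its pseudogene copies were divided between them. One set held D0, D7 and replicate 2 of each day between D10 and D25, and the other set held D4, D32 and the remaining libraries. Day and set therefore cannot be told apart within the steps from D0 to D4 and from D4 to D7 alone, and D32 lies wholly in the second set. Between the sets over D10 to D25 4.71% of genes differed, but of 69 members only Ephb2, lower in replicate 2 by a log2 of -0.32, and Sema3a, higher by 0.33, were among them. The labelled tissue was checked on its markers: 8 retinal progenitor markers summed to 847 CPM at D7 and 3681 CPM at D15, and 6 photoreceptor markers to 6811 CPM at D32.

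Guidance genes changed widely between the iPSCs and the first dissected retina, mostly upward. From D0 to D7 59 of 71 members changed (edgeR quasi-likelihood test, adjusted p below 0.05), beside 58.4% of all tested genes. Of these members 48 rose and 11 fell, where 28.8% of all tested genes rose and 29.6% fell. The median log2 change of the members was 1.58, against 0 over all tested genes. From D7 to D18 50 members changed, beside 49.1% of all genes. Of these 29 rose (26.8% of all genes) and 21 fell (4423 of the 19897 genes), with medians of 0.16 and 0.05. From D18 to D32 40 members changed, beside 44.3% of all genes. Of these 13 rose and 27 fell, beside 20.6% and 23.7%, with medians of -0.02 and -0.01. From D10 to D25 38 changed (45.5% of all genes), of which 16 rose and 22 fell, beside 23.9% and 21.6%. This span ends before the medium change at D26. It starts on the day of the medium and oxygen change at D10, so that change may lie within it. Over all 10 days every one of the 71 tested members changed, as did 91.4% of all genes.

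In the steps between neighbouring collection days the changed members numbered 47 of 71 from D0 to D4 (51.9% of all genes), 45 from D4 to D7 (42.8%) and 38 from D7 to D10 (37.8%). The first 2 of these steps each cross from one library set to the other. With the set as a term, which is estimated on the days from D10 to D25, 44 members changed in each of them. The later steps held fewer: 9 from D10 to D12 (4.41%), 13 from D12 to D15 (7.41%), 8 from D15 to D18 (2.89%) and 9 from D18 to D22 (8.20%). Of the 38 members changed from D7 to D10, 23 rose (20.0% of all genes) and 15 fell (17.8%). From D10 to D12 1 rose (2.52%) and 8 fell (1.89%), among the latter Nrp2, Sema3a and Sema3f. From D12 to D15 9 rose (5.13%) and 4 fell (2.29%), from D15 to D18 4 rose (1.91%) and 4 fell (0.975%), and from D18 to D22 5 rose (3.75%) and 4 fell (4.44%). No member changed from D22 to D25 (2.47% of all genes), where edgeR gave 8 members an unadjusted p below 0.05 and DESeq2 called 2. From D25 to D32 23 members changed (23.1% of all genes), of which 4 rose (9.31%) and 19 fell (13.8%). With library size as the only scaling the splits into higher and lower were 23 and 9 from D7 to D10 in place of 23 and 15, and 0 and 5 from D10 to D12 in place of 1 and 8. They were 8 and 2 from D12 to D15 in place of 9 and 4, 5 and 1 from D15 to D18 in place of 4 and 4, and 5 and 10 from D25 to D32 in place of 4 and 19. Counts of these later steps were small and moved with single libraries, as listed in the closing section.

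**Figure D1:**
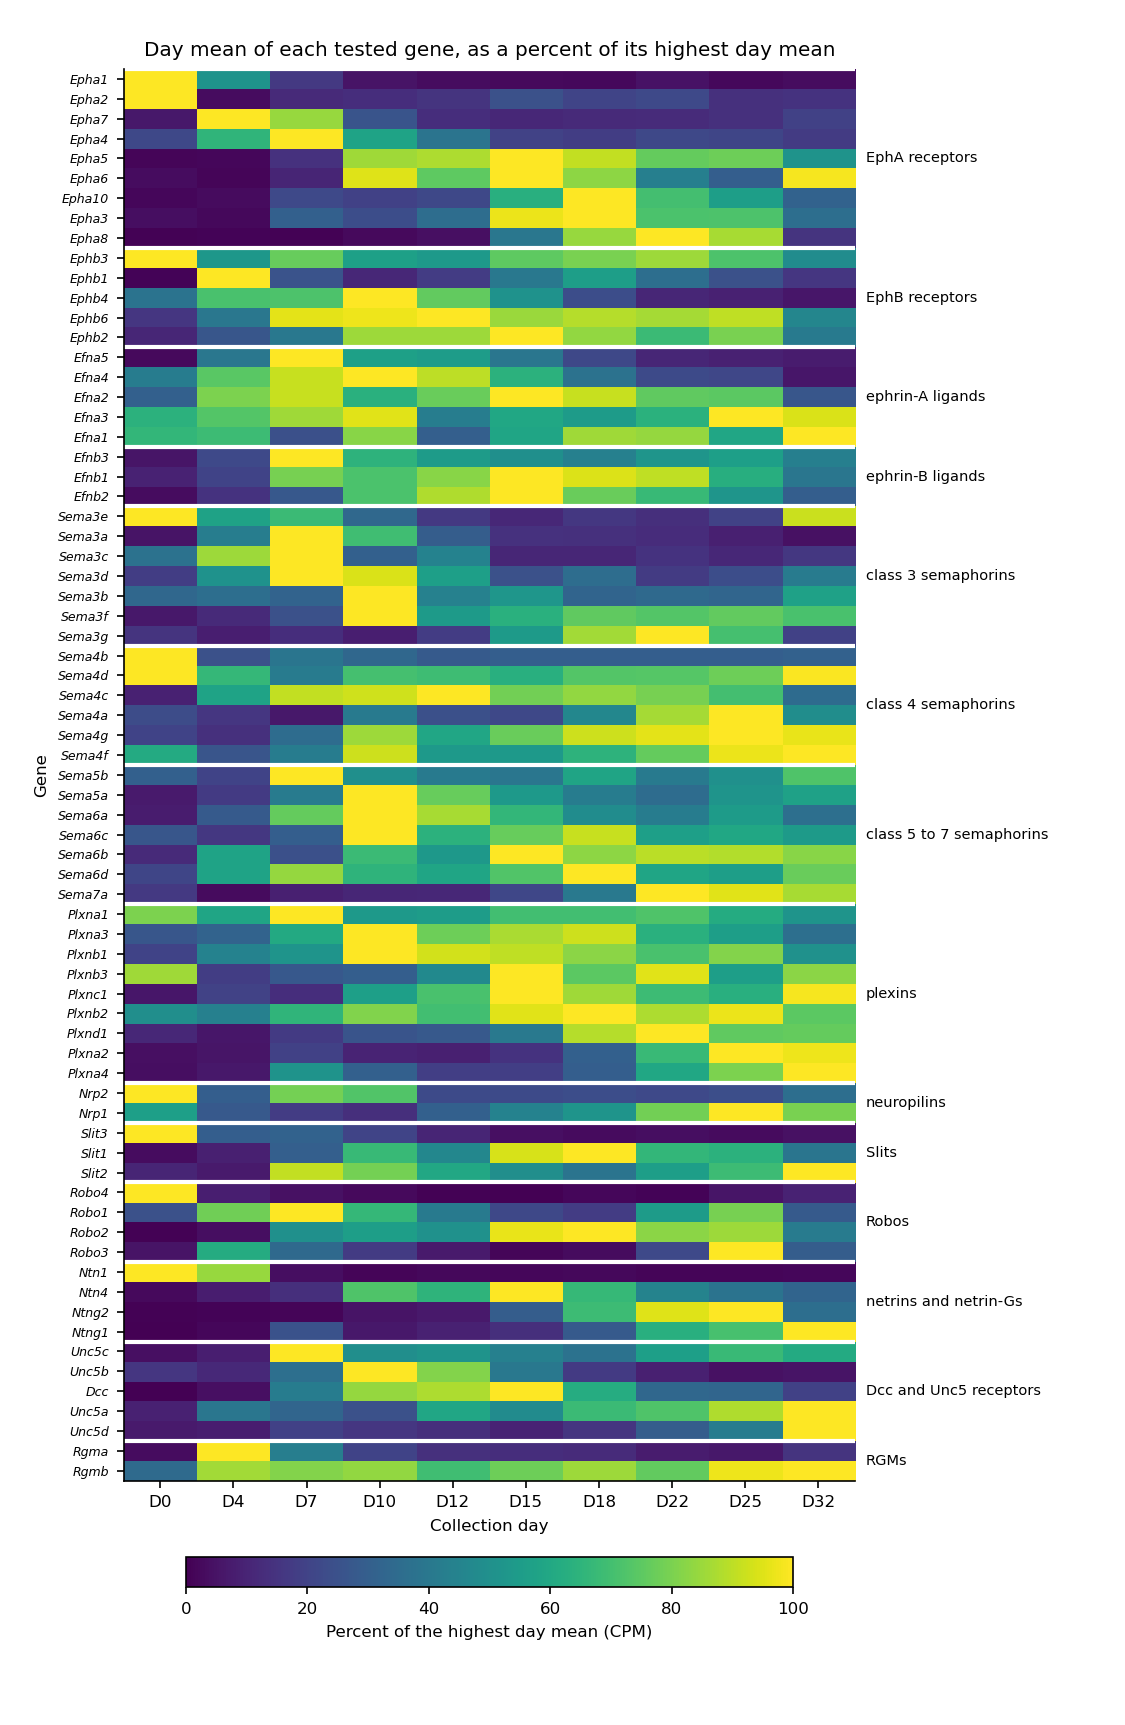
Heat map of the 71 tested members (rows, grouped by family and ordered by highest day) over the 10 collection days (columns). Colour gives the day mean as a percent of that gene's own highest day mean in CPM, so rows show timing and not level. Highest days are spread over the whole course, with 10 members at D0, 10 at D7, 10 at D10, 11 at D15 and 8 at D32.

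Highest days were also counted over all tested genes. At D15 11 members (15.5%) had their highest mean, against 5.17% of all tested genes, and at D7 and D10 10 members each (14.1%), against 8.43% and 7.15%. At the ends of the course the shares were 14.1% of members against 23.0% of genes at D0 and 11.3% against 21.4% at D32. These shares describe the lists and were not tested. On a scale per kilobase of transcript, the highest day means among the members were those of Efnb2 (122 CPM per kb at D15), Ntng2 (105 at D25), Unc5b (63.8 at D10), Epha8 (63.5 at D22) and Sema3f (63.1 at D10). The lengths come from the authors' transcript table, weighted by counts, and with the longest annotated transcript in place of the weighted length Sema3f came to 30.2 and Ntng2 to 64.4 CPM per kb.

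The Slits are secreted repellents, and 2 measures of Slit2 changed. One was its level, and the other the share of estimated counts assigned to annotated forms with short exons. Slit2 (chromosome 5, 47983138 to 48307733, plus strand, GRCm38) has 2 short coding exons that are used in some annotated transcripts and skipped in others. Exons this short are known as microexons. They are shown 5′ to 3′ with the 30 bases of the neighbouring exons on either side in the spliced transcript, the exon in capitals. The reason is that the share of counts on transcripts with the first of them followed the day of differentiation.
Slit2 exon of 27 bases: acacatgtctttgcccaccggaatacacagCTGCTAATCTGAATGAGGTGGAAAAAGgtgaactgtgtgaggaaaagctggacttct
Slit2 exon of 24 bases: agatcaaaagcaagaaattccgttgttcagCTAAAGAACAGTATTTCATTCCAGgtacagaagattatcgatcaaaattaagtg
The 27-base exon lies at chr5:48263641-48263667 and the 24-base exon at chr5:48220967-48220990, with bases from the GENCODE M21 transcripts of GRCm38. Both lengths are multiples of 3, so including either keeps the reading frame.

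Each share given here is the percent with the exon among counts on Slit2 transcripts that either hold it or skip it between the same neighbours, and not of all Slit2 counts. Counts were not divided by transcript length, so a share of counts is not a share of transcript molecules. For the 27-base exon it was 0% in all libraries of D0 and D4. There 0 of 940 and 0 of 736 such counts carried it, which by counting error alone would allow shares of up to 0.319% and 0.407%. These limits take every estimated count as informative. Only reads that can tell the forms apart are, so the true limits are wider by an unknown amount. At D7 the libraries gave 0.795%, 2.22% and 0%, and at D10 6.76%, 4.93% and 4.22%. The share then stood at 23.7%, 20.0% and 14.7% at D12, at 36.8%, 20.0% and 13.5% at D15, and at 41.1%, 40.2% and 22.18% at D18. At D22 it was 77.8%, 76.8% and 67.4%, at D25 78.7%, 81.0% and 70.1%, and at D32 76.4%, 81.8% and 70.9%. Every library from D22 on thus lay above every library up to D18, and replicate 3 had the lowest share on each day from D10 on. The event was picked out after the transcript values were seen, as 1 of 8 among 54 measured skipped exons in 30 members with a range of day means of at least 30 percentage points, so no test is given. The shares rest on how kallisto divided reads between annotated transcripts and not on reads counted across the junctions, and only 1 annotated transcript holds the exon. Annotated Slit2 forms also differ in length by far more than the exon, with a count-weighted length of 4.56 kb against 9.96 kb for the longest. The part of differences outside the exon in these shares was not tested.

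The 24-base exon, by contrast, was present from the start, with 44.0%, 17.5% and 58.5% at D0 and 82.3%, 82.9% and 78.3% at D22. Its libraries at D7, 66.3%, 45.5% and 59.3%, overlapped those of D0. At D32 the counts without the exons belonged to the longest annotated form, Slit2-001, which took 20.1% ± 4.36 of all Slit2 counts (SD, n = 3). The form with both exons, Slit2-006, took 65.8% ± 5.78 on the same day and 0.917% ± 1.03 at D7. At D32 the shares of the 2 exons therefore came from nearly the same split of counts. Mean counts with the exon were 1916 (24-base) and 1914 (27-base), and without it 573 and 578. Counting error here covers only the estimated counts, of which D4 replicates 1 and 2 had just 81.2 and 85.6 for the 27-base event. Of the other events over 30 points, a 93-base exon of Sema3f was highest at D0 (43.0%) and lowest at D4 (10.6%). A 51-base exon of Sema6a had 64.6% at D15 and 23.4% at D25, and a 165-base exon of Sema6a 82.3% at D10 and 51.7% at D22. Both rest on splits between forms of unlike length, Sema6a-004 (4339 bases), Sema6a-001 (6856) and Sema6a-003 (4123). Sema6a-004, with 48.9% of Sema6a counts at D10, is on neither side of the 165-base event. That event ran from 43.7% to 100% within D0 and from 54.5% to 100% within D4. The 3 events of Sema6d were measured on 4 to 7 days only.

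**Figure D2:**
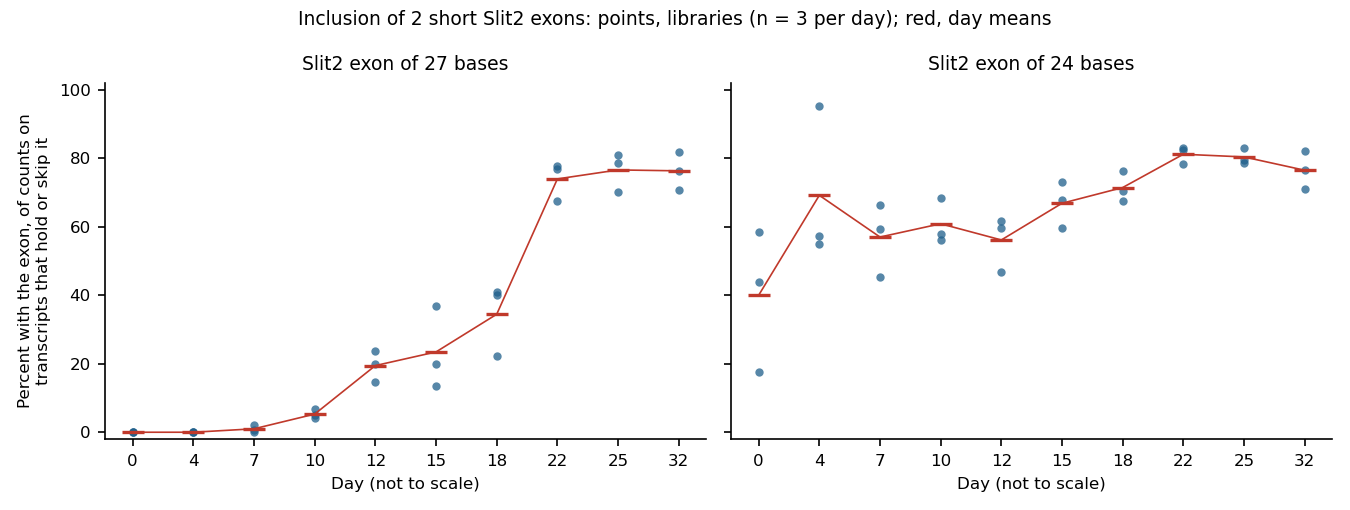
Percent with the 27-base exon (left) and the 24-base exon (right) among counts on Slit2 transcripts that hold or skip that exon between the same neighbours, by collection day (evenly spaced, not to scale). Blue points are libraries (n = 3 per day) and red marks day means. The 27-base exon goes from 0% at D0 and D4 to between 67.4% and 81.8% in all libraries from D22 on, while the 24-base exon is at 17.5% to 58.5% already at D0.

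In level, Slit2 had its lowest day mean at D4 (14.5 CPM) and its highest at D32 (195 CPM), with a fall and a new rise between D7 and D32. Its libraries held 21.8, 17.6 and 21.7 CPM at D0, 213, 161 and 158 at D7, 99.9, 63.0 and 62.4 at D18, and 201, 202 and 183 at D32. D18 lay above D0 and below D7 and D32 without overlap, and D7 and D32 overlapped. Slit2 rose from D0 to D7 (log2 3.12 ± 0.32, edgeR adjusted p = 8.7e-09), fell to D18 (-1.24 ± 0.30, adjusted p = 0.0013) and rose again to D32 (1.38 ± 0.30, adjusted p = 0.00052). Slit1 reached its highest mean at D18, 53.3 ± 3.66 CPM (SD, n = 3), up from 16.2 ± 9.72 at D7, and fell to 20.7 ± 5.72 at D32. Slit3 took the opposite course, from 39.1 ± 19.6 CPM at D0 to 12 ± 2.9 at D7 and 1.16 ± 0.724 at D18.

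Among the Slit receptors, Robo1 had 2 peaks with a trough at D15 and D18. It rose from D0 to D7, where its libraries held 113, 98.0 and 81.1 CPM, and fell to 15.7, 19.2 and 17.4 CPM at D18 (log2 -2.48 ± 0.21, edgeR adjusted p = 3.8e-10). From D18 to D22 it rose again, to 40.7, 73.4 and 46.2 CPM (1.61 ± 0.20, adjusted p = 8.4e-06). After 64.2, 75.9 and 92.3 CPM at D25 it fell to 24.8, 27.6 and 30.6 CPM at D32 (-1.48 ± 0.20, adjusted p = 4.0e-06). No D18 library overlapped those of D22, nor did D25 overlap D32. Robo3, a divergent Robo known for letting commissural axons cross the midline, had its low values on the same days: 7.74 ± 6.11 CPM at D7, 0.66 ± 0.467 at D18 and 22.6 ± 8.99 at D25 (SD, n = 3). Its libraries at D25 held 17.3, 17.5 and 33.0 CPM, and it was higher at D32 than at D18 (log2 3.32 ± 0.75, edgeR adjusted p = 0.00078). Within the library set that holds D7 and replicate 2 of D18, its fall from D7 to D18 (log2 -3.53 in all libraries) had an edgeR adjusted p of 0.0503.

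Robo2 instead formed a plateau. It was at 0.608, 0.570 and 1.91 CPM at D0, at 103, 76.9 and 64.1 at D7 (log2 6.32 ± 0.55, edgeR adjusted p = 4.7e-10), at 158, 169 and 158 at D18, and at 68.0, 65.3 and 69.5 at D32. At D32 it was lower than at D18 by -1.26 ± 0.40 (adjusted p = 0.012), with no overlap of libraries. Robo4, the Robo of blood vessels, fell from 2.00 ± 1.05 CPM at D0 to 0.0884 ± 0.0819 at D7 and later libraries held at most 0.332 CPM.

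Netrin-1 and its receptors moved in opposite directions between D0 and D7. Ntn1, the prototype netrin, held 33.7, 37.6 and 82.2 CPM at D0 and 47.7, 65.4 and 16.8 at D4, but 1.66, 2.15 and 1.71 at D7. Its fall from D0 to D7 was -4.79 ± 0.46 (edgeR adjusted p = 2.3e-09), and later libraries held at most 1.72 CPM. Dcc, the attractive netrin receptor, was at 0.166, 0.0518 and 0.289 CPM at D0 and at 50.04, 27.7 and 26.8 CPM at D7, a rise of 7.67 ± 0.69 (adjusted p = 8.2e-10). All 5 Dcc and Unc5 receptors rose over this span, beside 28.8% of all genes. Ntn1, Slit3 and Nrp1 were highest in D0 replicate 3, and the summed level of 8 feeder and fibroblast markers was 466, 749 and 1238 CPM in D0 replicates 1, 2 and 3, against 75.6 to 89.7 CPM at D7. The part of feeder cells in these falls was not tested. Without D0 replicate 3 the fall of Nrp1 (log2 -1.66) had an adjusted p of 0.14.

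After D7 the netrin receptors parted. Dcc reached its highest mean at D15 (75.6, 69.9 and 103 CPM) and was at 22.7, 32.4 and 28.3 CPM at D22 and at 15.24, 16.2 and 16.5 CPM at D32. The fall from D18 to D32 was -1.68 ± 0.43 (edgeR adjusted p = 0.0022), with all D32 libraries below all D18 libraries. The summed level of 9 ganglion cell markers also had its highest day mean at D15, with 338 to 688 CPM, and held 77.3 to 122 CPM at D22. It did not follow Dcc on all days. At D32 it stood at 122 to 133 CPM, no lower than at D22. At D0 it was already 214 to 232 CPM, most of it Rbpms (192 CPM), and at D7 124 to 178 CPM. Of the single markers, Pou4f1 and Isl2 were highest at D18 and Pou4f3 at D22. The part of ganglion cell number in the level of Dcc was not tested, and in bulk libraries of this kind fewer cells of a type and less RNA per cell cannot be told apart.

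Unc5b, a netrin receptor also known from vessel tips, had the highest level per kilobase of its group and the steepest later fall. It stood at 42.0, 55.6 and 80.4 CPM at D0, at 342, 325 and 452 CPM at D10, and at 16.3, 16.9 and 15.7 CPM at D25. The fall from D10 to D25 was -4.52 ± 0.34 (edgeR adjusted p = 6.8e-11). The steps from D12 to D15 (-1.02 ± 0.30) and from D15 to D18 (-1.24 ± 0.30) passed the test on their own. Over these days the summed level of 5 pigment epithelium markers went from 750 to 909 CPM at D10 to 25.6 to 101 CPM at D15 and 5.24 to 14.7 CPM at D25. Pmel, a melanosome gene, made up most of that sum, Tyr stood at 63.0 CPM at D10, and Rpe65 was at or under 0.0635 CPM on all days. How far pigmented cells carried Unc5b was not tested, and at D12 its libraries (294, 188 and 430 CPM) were still high.

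Unc5d rose late, from 3.38, 2.83 and 3.36 CPM at D18 to 19.7, 18.9 and 23.8 CPM at D32 (log2 2.70 ± 0.30, edgeR adjusted p = 4.2e-08). Unc5a rose from 3.95 ± 0.785 CPM at D10 to 14.0 ± 4.27 at D25 (SD, n = 3), and Unc5c from 1.76 ± 0.586 CPM at D0 to 41.9 ± 14.9 at D7, after which it fell to 15.8 ± 1.51 at D18. Ntn4, a laminin-binding netrin of basement membranes, rose from 3.87 ± 1.48 CPM at D7 to 19.4 ± 2.55 at D18 and had its highest mean, 29.1 ± 1.52, at D15.

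**Figure D3:**
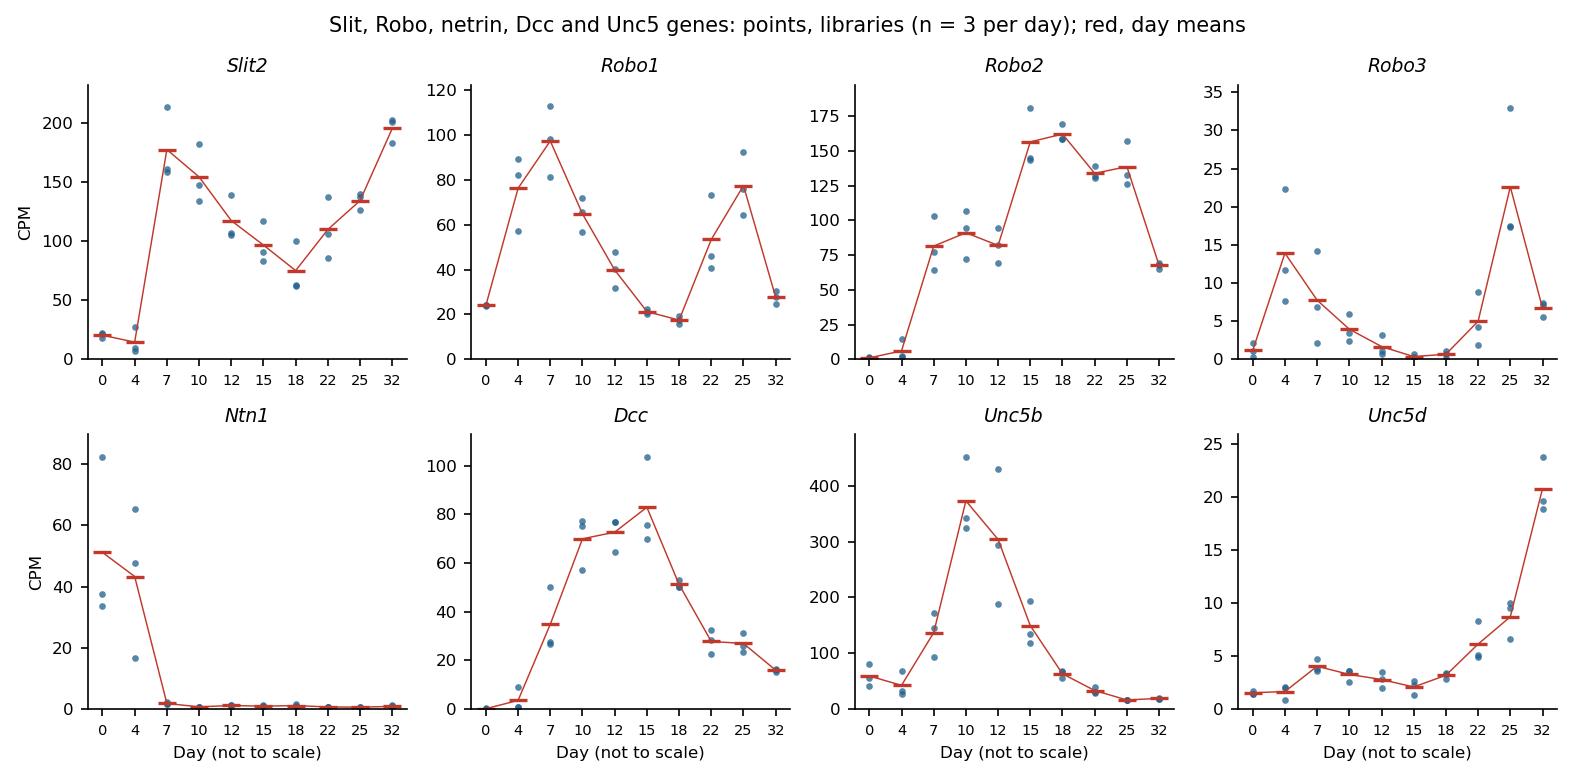
Level of Slit2, Robo1, Robo2, Robo3, Ntn1, Dcc, Unc5b and Unc5d in CPM by collection day (evenly spaced, not to scale). Blue points are libraries (n = 3 per day) and red marks day means. Robo1 and Robo3 have an early and a late peak around low values at D15 and D18, Ntn1 is at 2.15 CPM or less from D7 on, and Unc5b is highest at D10.

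The netrin-Gs are membrane-anchored relatives that bind their own ligands at synapses rather than Dcc. Ntng2 rose with development, from 3.42, 1.45 and 0.797 CPM at D7 to 69.7, 91.3 and 98.8 CPM at D18 (log2 5.50 ± 0.43, edgeR adjusted p = 1.2e-10) and 129, 157 and 92.6 CPM at D25. At D32 it had fallen to 35.9, 55.5 and 46.0 CPM, below every library of D25 (-1.46 ± 0.34, adjusted p = 0.0025). An exon of Ntng2 overlaps the noncoding gene 6530402F18Rik on the same strand, whose mean level was 56.3% of that of Ntng2, so the 2 genes may share reads. Ntng1 rose from 2.11 ± 1.50 CPM at D18 to 7.47 ± 0.90 at D32 (SD, n = 3). Of the repulsive guidance molecules, which bind neogenin, Rgma rose from 2.71 ± 0.831 CPM at D0 to 83.2 ± 11.6 at D4 and fell to 5.41 ± 1.01 by D25, while Rgmb stayed between 17.1 and 24.7 CPM on all days from D4 on.

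Among the Eph receptors the EphA genes divided by time into an early and a late group. From D7 to D18 6 of 9 EphA receptors rose and 3 fell, beside 26.8% of all genes that rose and 4423 of the 19897 that fell. The largest change of any tested member over this span was in Epha8 (chromosome 4, 136929419 to 136956816, minus strand), an EphA receptor known from the midbrain. Its libraries held 1.86, 1.02 and 0.797 CPM at D7, 111, 131 and 115 at D15, and 212, 211 and 334 at D18, a rise from D7 of 7.66 ± 0.46 (edgeR adjusted p = 1.4e-12). The single step from D12 to D15 gave 3.32 ± 0.36 (adjusted p = 1.4e-06). It peaked at D22 with 238, 312 and 348 CPM and fell from 250, 299 and 230 CPM at D25 to 48.1, 53.2 and 33.4 CPM at D32 (-2.53 ± 0.34, adjusted p = 4.6e-06). No library of D7, D15 or D32 overlapped those of D18 to D25.

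Epha5, Epha3 and Epha10 belonged to the late group as well. Epha5, which takes part in the mapping of retinal axons, was at 21.2, 19.9 and 19.6 CPM at D7 and at 134, 116 and 112 CPM already at D10 (log2 2.58 ± 0.14, edgeR adjusted p = 1.9e-12), and ended at 72.9, 68.9 and 75.6 CPM at D32. Epha10, a receptor without kinase activity, rose to 84.0 ± 2.47 CPM at D18 and fell to 26.5 ± 4.12 at D32 (SD, n = 3). Epha3 had a like course with 52.9 ± 9.93 CPM at D18 and 19.1 ± 2.52 at D32.

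The early group held Epha7 and Epha4. Epha7 was at 132, 90.9 and 87.3 CPM at D7 and at 12.6, 12.7 and 18.09 CPM at D18 (log2 -2.84 ± 0.26, edgeR adjusted p = 1.7e-09), and its step from D7 to D10 passed the test by itself. Epha4, which binds ephrins of both classes, fell from 139, 101 and 91.9 CPM to 22.4, 20.7 and 17.3 CPM over the same span (-2.46 ± 0.27, edgeR adjusted p = 5.0e-08). Many of its estimated counts lay on a form annotated for nonsense-mediated decay and not as protein coding. That form, Epha4-002, took 80.7% ± 4.51 at D7 and 31.6% ± 47.1 at D18 (SD, n = 3). Epha2 and Epha1 had their highest day means at D0, the group of iPSCs on feeder cells, and the part of feeder cells was not tested. Epha2, an epithelial receptor, was at 146, 197 and 231 CPM at D0 and at 5.10, 3.67 and 11.3 CPM at D4 (-4.82 ± 0.35, edgeR adjusted p = 3.3e-11). It then lay between 19.9 and 63.1 CPM in every library from D7 on. Epha1 fell from 18.7 ± 1.96 CPM at D0 to 3.13 ± 0.253 at D7 (SD, n = 3). It shares exon sequence with Zyx on the opposite strand, whose mean CPM was 1168% of that of Epha1, and how the counting used strand is not given in the sources used here.

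The EphB receptors of the retina moved apart. Ephb2, a receptor of ventral ganglion cells, had the highest level of the EphB genes per kilobase, 40.0 CPM per kb at D15. Its libraries held 23.1, 27.7 and 26.4 CPM at D0, 108, 95.5 and 84.3 at D7, 261, 192 and 268 at D15, and 103, 103 and 92.2 at D32. It rose from D7 to D18 (log2 1.07 ± 0.20, edgeR adjusted p = 8.7e-05) and fell to D32 (-1.02 ± 0.20, adjusted p = 0.00017). Ephb4, the venous receptor of Efnb2, was at 95.7, 93.6 and 93.4 CPM at D10 and at 9.53, 6.53 and 10.25 CPM at D25 (-3.42 ± 0.23, adjusted p = 9.7e-12). Part of the Ephb4 locus overlaps Zan on the opposite strand, whose mean level was 26.9% of that of Ephb4. Ephb1 had an early peak at D4 with 38.4, 37.4 and 23.2 CPM, against 0.221, 0.570 and 0.116 CPM at D0 (6.71 ± 0.38, adjusted p = 2.4e-13), fell to 8.50 ± 2.83 at D7 and rose to 18.5 ± 4.36 at D18 (SD, n = 3). From D18 to D32 all 5 EphB receptors fell, beside 23.7% of all genes.

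Of the ephrin ligands, Efnb2 (chromosome 8, 8617434 to 8661242, minus strand) was the member with the highest level per kilobase. Its libraries held 15.0, 20.5 and 17.5 CPM at D0, 177, 147 and 126 at D7, 395, 371 and 401 at D10, 534, 566 and 528 at D15, and 165, 174 and 144 at D32. The D4 libraries lay wide apart at 43.7, 39.4 and 152 CPM, with replicate 3 the highest. The rise from D0 to D7 was 3.09 ± 0.32 and that from D7 to D18 1.48 ± 0.30, followed by a fall of -1.37 ± 0.30 to D32 (edgeR adjusted p = 8.9e-09, 0.00020 and 0.00046). Efnb3 had its highest level at D7 (130, 120 and 111 CPM, from 6.46, 7.82 and 6.18 at D0), with 52.6 ± 4.74 CPM at D18 and 51.7 ± 11.8 at D32 (SD, n = 3).

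Of the 5 A-class ephrins 3 fell and 1 rose from D18 to D32, beside 23.7% and 20.6% of all genes. Efna5, a repellent for temporal ganglion cell axons, was at 2.87, 2.95 and 2.95 CPM at D0, at 131, 101 and 118 CPM at D7 (log2 5.31 ± 0.27, edgeR adjusted p = 2.3e-14), at 24.7, 22.0 and 29.2 CPM at D18 and at 9.06, 9.58 and 8.04 CPM at D32. All D7 libraries lay above all those of D0 and D18. Efna4 fell from 21.8 ± 2.16 CPM at D10 to 4.62 ± 0.563 at D25 and 1.29 ± 0.329 at D32 (SD, n = 3). Efna2 fell from 18.0 ± 3.59 at D18 to 5.24 ± 0.622 CPM at D32. From D18 to D32 14 of the 22 Eph and ephrin genes tested fell and 2, Epha7 and Efna3, rose, beside 23.7% and 20.6% of all genes. Over the same span the 8 retinal progenitor markers went from a sum of 2802 to 2971 CPM at D18 to 684 to 789 CPM at D32, and their part in these falls was not tested.

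**Figure D4:**
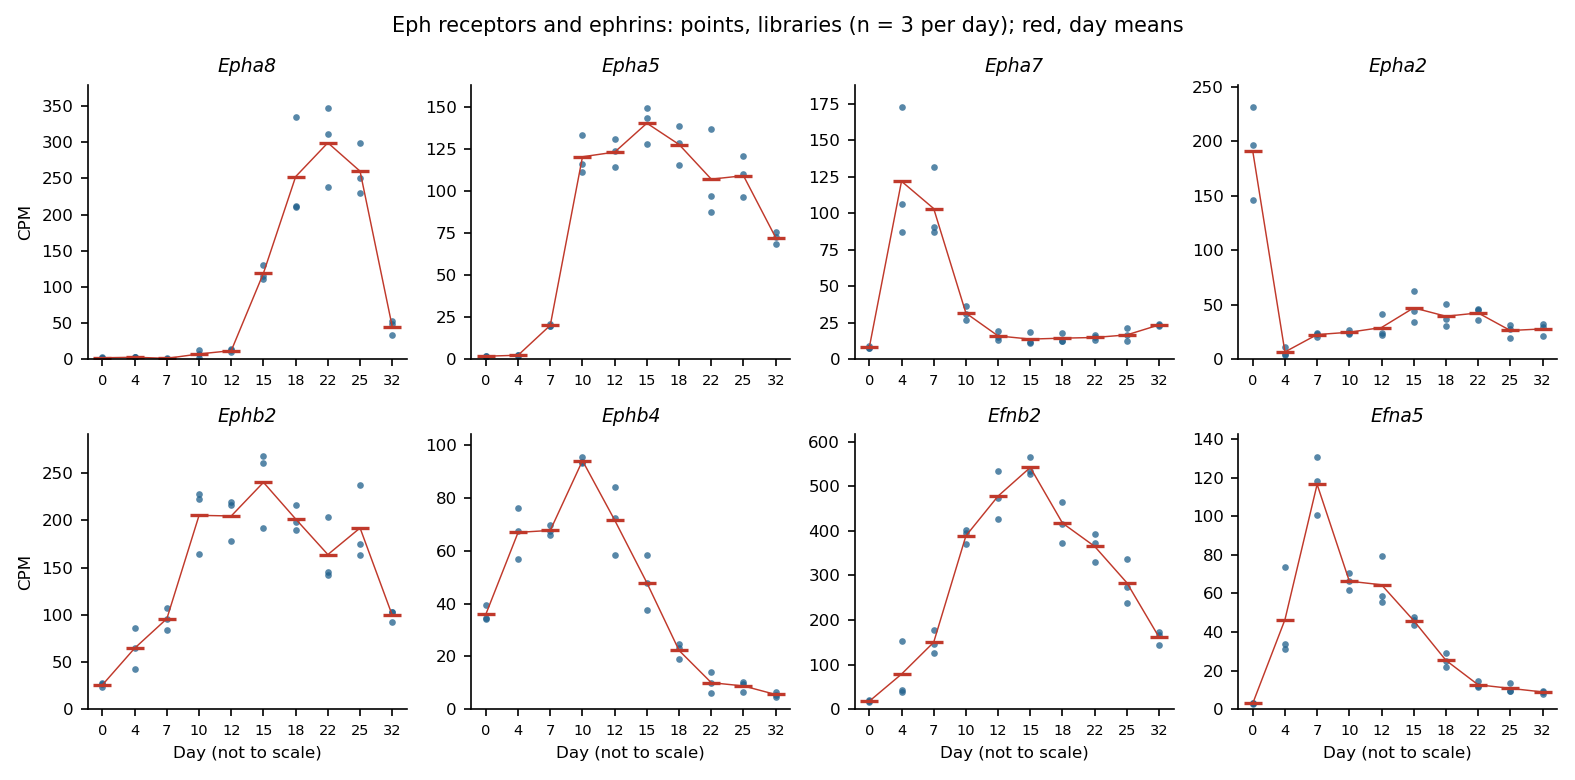
Level of Epha8, Epha5, Epha7, Epha2, Ephb2, Ephb4, Efnb2 and Efna5 in CPM by collection day (evenly spaced, not to scale). Blue points are libraries (n = 3 per day) and red marks day means. Epha8 is at 13.5 CPM or less in all libraries up to D12 and at 211 to 348 CPM from D18 to D25, while Epha7 and Efna5 are highest at D4 or D7 and Epha2 at D0.

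The plexins, the receptors for semaphorins, were led per kilobase by Plxnb2, with 56.4 CPM per kb at D18, where its level was 315 ± 17.2 CPM (SD, n = 3). From D10 to D25 Plxna2 rose most among them. Its libraries held 15, 12 and 11 CPM at D0, 83.6, 55.2 and 49.0 at D7, 30.9, 30.3 and 35.5 at D10, 83.4, 108 and 105 at D18, 307, 403 and 258 at D25, and 278, 370 and 296 at D32. Its rise from D10 to D25 was 3.33 ± 0.22 (edgeR adjusted p = 6.9e-12), and the steps from D12 to D15, D15 to D18 and D18 to D22 each passed the test. Plxna4, a receptor for class 3 and class 6 semaphorins, was at 24.9, 13.8 and 11.3 CPM at D7 and rose between D18 (6.50, 10.4 and 12.11 CPM) and D32 (33.6, 31.5 and 32.4 CPM) by 1.75 ± 0.43 (adjusted p = 0.0018). Over the same days the 6 photoreceptor markers summed to 390 to 646 CPM at D18 and 5838 to 7494 CPM at D32, and 6 amacrine markers to 172 to 254 CPM and 472 to 490 CPM. The part of cell composition in these rises was not tested.

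Plxnd1, the receptor for Sema3e, rose from 10.9, 14.1 and 15.0 CPM at D7 to 83.9, 63.6 and 61.8 CPM at D18 (log2 2.39 ± 0.22, edgeR adjusted p = 2.6e-09), with the step from D15 to D18 at 1.13 ± 0.21. Its ligand Sema3e took another course, with 12.0, 17.9 and 12.25 CPM at D0, 1.44, 2.53 and 2.87 at D18 and 13.2, 16.4 and 9.28 at D32. The late rise of Sema3e was 2.50 ± 0.49 (adjusted p = 0.00017), when Plxnd1 stood at 60.5, 54.8 and 64.6 CPM. Plxnc1, the receptor for Sema7a, rose from 6.33 ± 2.64 CPM at D7 to 41.8 ± 1.73 at D18 (SD, n = 3). Sema7a itself, a GPI-anchored semaphorin, rose from 4.67, 3.01 and 5.02 CPM at D10 to 34.0, 48.8 and 31.7 CPM at D25 (3.17 ± 0.29, adjusted p = 1.8e-09), with 37.0, 44.2 and 38.7 CPM already at D22.

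Of the 7 secreted class 3 semaphorins 6 had their highest day mean at D10 or earlier, the exception being Sema3g. Of all tested genes 23.0%, 15.5%, 8.43% and 7.15% had theirs at D0, D4, D7 and D10. Sema3e counts as early by its D0 mean, although its D0 and D32 libraries overlapped. Sema3a, the archetypal axon repellent, was at 3.87, 6.37 and 5.38 CPM at D0, at 72.0, 108 and 120 CPM at D7 (log2 4.26 ± 0.40, edgeR adjusted p = 1.6e-09), at 11.8, 17.1 and 12.31 CPM at D18 and at 3.80, 3.98 and 5.43 CPM at D32. Its falls from D7 to D18 (-2.86 ± 0.37) and from D18 to D32 (-1.64 ± 0.37) both passed the test, and its D10 to D12 step gave -1.24 ± 0.35. Sema3c fell from 9.51 ± 2.39 CPM at D7 to 1.03 ± 0.359 at D18, and Sema3b from 12.0 ± 0.782 at D10 to 3.92 ± 1.89 at D25 (SD, n = 3). Sema3f was at 26.7, 22.9 and 26.8 CPM at D7, at 98.9, 99.5 and 109 at D10, and at 56.4, 82.0 and 81.1 at D32. Its D10 libraries lay above those of D7 and D32, and its D32 libraries above those of D7.

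The neuropilins, which bind class 3 semaphorins, went separate ways after D7. Nrp1 was at 5.23, 5.39 and 5.58 CPM at D7, at 4.82, 2.91 and 4.56 at D10 and at 34.0, 24.7 and 32.0 at D25, a rise from D10 of 2.88 ± 0.61 (edgeR adjusted p = 0.00034). Nrp2 was at 54.2, 47.5 and 67.9 CPM at D10, 13.4, 14.6 and 24.5 at D12 and 15.4, 17.5 and 23.0 at D25. Its step from D10 to D12 gave -1.69 ± 0.39 (adjusted p = 0.017), with no overlap of libraries. Kdr, the vascular growth factor receptor that uses neuropilins, stood at 0.759 CPM at D0 and 330.3 CPM at D22, as day means. Of the other 6 genes on the endothelium list, Pecam1, Tie1, Tek, Cdh5 and Emcn had day means under 2 CPM on all days from D7 on. Cldn5 went from 0.351 CPM at D7 to 2.68 at D15, 4.45 at D18 and 3.47 at D22, and was at 0 at D32. The part of vessel cells in the level of Kdr was not tested.

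Among the membrane-bound semaphorins of classes 4 to 7, the ratio of the highest to the lowest day mean ran from 2.40 for Sema4d to 32.5 for Sema7a. Sema4g kept 74.9 to 97.3 CPM on all days from D15 on, and Sema6a had its highest mean at D10 (128 ± 7.09 CPM) and 46.7 ± 4.203 at D32 (SD, n = 3). Sema4b and Sema4d were higher at D0 than at D7, with 76.1 ± 6.73 against 29.5 ± 3.15 CPM and 45.4 ± 3.68 against 19.0 ± 0.615 CPM. Sema4a, which when mutated leads to photoreceptor loss, was at 1.29, 0.754 and 1.48 CPM at D7, at 6.18, 8.68 and 7.84 at D10, and at 16.2, 17.3 and 21.7 at D25. It fell to 7.70, 9.96 and 9.47 CPM at D32 (log2 -1.02 ± 0.29, edgeR adjusted p = 0.012). Part of its estimated counts lay on forms annotated as retained intron and not as protein coding. Of these, Sema4a-014 took 45.1% ± 40.6 at D7 and 12.7% ± 1.75 at D25, and Sema4a-016 20.0% ± 34.6 and 0% (SD, n = 3).

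**Figure D5:**
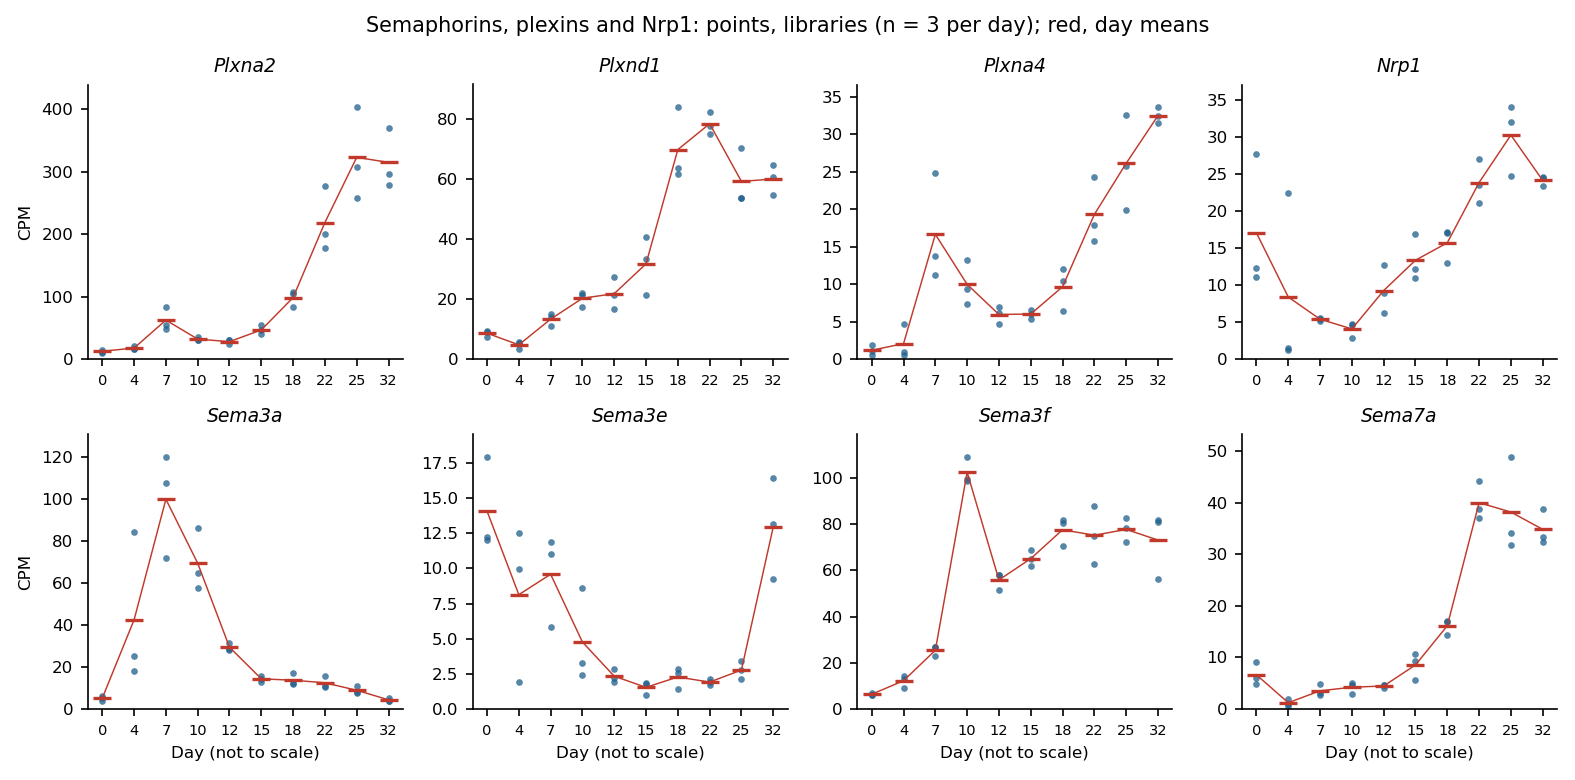
Level of Plxna2, Plxnd1, Plxna4, Nrp1, Sema3a, Sema3e, Sema3f and Sema7a in CPM by collection day (evenly spaced, not to scale). Blue points are libraries (n = 3 per day) and red marks day means. Plxna2 goes from 30.3 to 35.5 CPM at D10 to above 250 CPM at D25 and D32, and Sema3a is highest at D7.

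By family, the called members are counted here in both directions, beside the shares of all genes. From D0 to D7, where 28.8% of all genes rose and 29.6% fell, the ephrin-B ligands rose in 3 of 3 cases, the plexins in 7 of 9 and the class 3 semaphorins in 4 of 7, with no falls among them. Of the 6 class 4 semaphorins 2 rose and 3 fell. From D7 to D18, where 26.8% of all genes rose and 4423 of the 19897 fell, 5 of 9 plexins rose and 1 fell, and 3 of 6 class 4 semaphorins rose and 0 fell. Of the 7 class 3 semaphorins 2 rose and 4 fell, and of the 4 Robos 1 rose and 2 fell. From D18 to D32, where 20.6% of all genes rose and 23.7% fell, 2 of 3 ephrin-B ligands fell and 0 rose. Of the 4 Robos 2 rose and 1 fell, of the 9 plexins 2 rose and 3 fell, and of the 7 class 3 semaphorins 1 rose and 2 fell.

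Other genes of the same signalling paths were taken from 2 further lists. Of 48 co-receptors and further cues, 30 rose and 7 fell from D0 to D7, 19 and 9 from D7 to D18, and 10 and 15 from D18 to D32. Among them Flrt3, a binding partner of Unc5 and Robo receptors, fell from 197 to 16.2 CPM between D7 and D18 (log2 -3.60 ± 0.40), and Dscam, a cell adhesion receptor that spaces retinal neurons, rose from 2.36 to 41.1 CPM. From D18 to D32 Islr2 fell from 307 to 21.0 CPM and Nfasc, a neurofascin of axon initial segments, rose from 90.1 to 507 CPM. Of 76 intracellular effectors, which pass receptor signals to the cytoskeleton, 39 rose and 19 fell from D0 to D7, 27 and 20 from D7 to D18, and 13 and 36 from D18 to D32. Dpysl3, a collapsin response mediator, rose from 132 to 867 CPM between D7 and D18, and Tubb3, the neuronal beta tubulin, fell from 419 to 93.7 CPM between D18 and D32. The shares of all genes called in each direction are those given with the member counts.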

How the data were processed

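Poly(A) RNA of 30 libraries, 3 per day, had been sequenced as directional libraries, per the labels' protocols. The submitters' processing notes name Trimmomatic 0.36, kallisto 0.42.4 and edgeR (no version) as tools and GRCm38.p4 as the build. The authors deposited estimated counts per gene and per transcript and a normalised signal per gene (CPM, TMM-scaled per the submitters' processing notes). The step from transcripts to genes and the use of strand in counting are not given in the sources used here. Across the deposited files, 9 columns match no listed sample and were not used.

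Estimated counts as deposited were rounded and tested with edgeR 4.0.16 in R 4.3.3: filterByExpr (minimum count 10, minimum total 15), TMM, 1 model with a mean per day over all 30 libraries, quasi-likelihood F tests, Benjamini-Hochberg adjustment over 19897 genes, called at an adjusted p below 0.05. Precision is limited by the spread of 3 libraries; intervals on counts cover counting error only. The test was also run on simulated counts with the same relative spread for every gene and no library sets. That run does not show its error rate on these data. Levels per kb use transcript lengths weighted by counts. An exon's share is the percent of estimated counts on transcripts that hold it, among those that hold or skip it between the same neighbours, for exons with at least 50 counts per library on at least 2 days. Annotation and bases were those of GENCODE M21.

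The members and lists were chosen with earlier results of these data known. Named are, per span, the 8 largest rises and falls among called members whose libraries did not overlap and whose higher day mean was at least 5 CPM, per step the 2 largest each way, and per family the member with the highest mean and the one with the widest range. Epha3, Epha10, Robo4, Kdr, the skipped exons and the genes named from the 2 further lists were added after their values were seen. Same-numbered replicates deviated together (every correlation over 0.1) in the 5 steps from D10 to D25, where replicate 2 is 1 library set, and not in the other comparisons. Alternatives were RLE factors, library size only, DESeq2 1.42.0, 2 other filters, limma 3.58.1 on log2 of the deposited CPM plus 1 or 0.1, the replicate block, the library set as a term, only the 6 libraries compared, and each library left out. Added after seeing the data were fits without D4 and within each library set.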

Additional observations from a re-analysis of the deposited data

How the results depend on the processing

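Of 1134 recomputed log2 changes of the named members, 1130 kept their direction and call and none reversed. The other 4 kept their direction and lost the call: Nrp1 from D0 to D7 with library size only (adjusted p = 0.057), without D0 replicate 3 (0.14) and without D7 replicate 1 (0.051), and Robo3 from D7 to D18 within 1 library set (0.0503). Counts of changed members moved by over 1.5 times as follows. Library size only gave 5 from D10 to D12 and 15 from D25 to D32, DESeq2 20 from D12 to D15 and 2 from D22 to D25, and limma with 1 added 1 from D22 to D25. Only the 6 libraries compared gave 29 from D4 to D7, 14 from D18 to D22 and 1 from D22 to D25. With the replicate number as a block 1 member changed from D22 to D25, and no other count moved by over 1.5 times under the block. Leaving out each library gave 45 to 47 members higher and 9 to 11 lower from D0 to D7, 23 to 29 and 20 to 22 from D7 to D18, 11 to 13 and 24 to 26 from D18 to D32, 15 to 16 and 19 to 21 from D10 to D25, and 70 to 71 over all days. In the steps it gave 42 to 50 (D0 to D4), 41 to 50 (D4 to D7), 30 to 36 (D7 to D10), 1 to 5 (D10 to D12), 6 to 11 (D12 to D15), 3 to 6 (D15 to D18), 6 to 8 (D18 to D22), 0 to 3 (D22 to D25) and 13 to 20 (D25 to D32). The lowest came without D10 replicate 3 (1), without D15 replicate 3 (6), without D15 replicate 1 or D18 replicate 2 (3 each), and without D25 replicate 3 (13), and the highest from D22 to D25 without D22 replicate 2 (3). Fewer libraries also mean fewer degrees of freedom; otherwise the cause was not tested. Library size only moved the median log2 change of all genes to 0.19 from D0 to D7, 0.17 from D7 to D18, -0.18 from D0 to D4, 0.40 from D4 to D7, 0.16 from D7 to D10 and -0.12 from D10 to D12. Genes near 0 CPM, such as Dcc at D0, are limited by depth, and their fold changes depend on the prior count.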
